A study of Mus musculus with 48 samples.

Results

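Transcripts of 7 subunits of the GABA-A receptor were followed in the mouse dentate gyrus during the first 2 weeks after kainate-induced status epilepticus. The members were named by gene: Gabra2, Gabra3, Gabra4 and Gabra5 encode alpha subunits, Gabrb1 and Gabrb2 encode beta subunits and Gabrd encodes the delta subunit. Each was found once among the 55357 genes of the deposited count table, and all 7 were among the 21390 genes that passed the filter for low counts. A further 12 subunit genes of the same family are given by counts.

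The receptor is a chloride channel that opens when GABA binds, and it is assembled from 5 subunits around a central pore. A common form holds alpha, beta and gamma subunits, sits at synapses and carries brief inhibitory currents. Receptors with the alpha 5 subunit, and those that pair alpha 4 with delta, lie largely outside synapses and carry a steady, tonic inhibition. In dentate granule cells the alpha 4 and delta pair is the best known of these extrasynaptic receptors, and it responds to neurosteroids.

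RNA came from 48 dorsal dentate gyrus libraries of 24 C57BL/6J mice of both sexes, with 1 library from each side of each brain. All mice had a unilateral injection into the hippocampus, of kainate or of saline as the vehicle control, and were sampled 3, 7 or 14 days later, which gave 12 groups of 4 libraries. The injected side is called the epileptogenic zone (EZ) and the opposite side the peri-ictal zone (PIZ). The mice were wild type and 8 to 10 weeks of age per the study's methods, with no age in the sample labels used here, and all kainate mice had a convulsive seizure. Each library is bulk tissue, so for every difference below fewer cells of a type and less RNA per cell cannot be told apart.

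Library totals lay between 17762656 and 25712975 counts. Levels are given as CPM, the counts of a gene scaled to library size, after TMM scaling, and a gene was called in a comparison at an adjusted p under 0.01 in edgeR's quasi-likelihood test with a fold change over 1.5. The error beside a log2 fold change is its standard error and that beside a level is the SD, with n = 4 mice in each group. Markers of dentate granule cells were present in every library, with a summed level of 10 genes from 438 to 1853 CPM. The choroid plexus marker Ttr averaged 0.717 CPM in saline libraries, and Prkcd, a marker of thalamus, averaged 33.25 CPM. A total of 3 PIZ libraries stood apart from the others of that side: saline mouse 18 at day 3, kainate mouse 21 at day 7 and saline mouse 39 at day 14. Their summed hilar mossy cell markers were 72.8, 99.0 and 114 CPM, against at most 50.1 CPM in the other PIZ libraries. In saline libraries Calb2 reached 105.5 CPM and Csf2rb2, the next most abundant of these markers, at most 6.98 CPM. The sums of saline mice 18 and 39 thus rest mostly on Calb2. Granule cell markers of the 3 libraries that stood apart summed to 986, 706 and 896 CPM, the lowest of the PIZ.

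All members but Gabrd lie in clusters with other subunit genes, and the promoters of those on which the results turn are shown here for the features that they do and do not share. Positions of genes are those of GRCm39. Gabra2 (chromosome 5, 71114573 to 71253662, minus strand), Gabra4 (chromosome 5, 71721738 to 71815722, minus strand) and Gabrb1 (chromosome 5, 71815456 to 72319431, plus strand) lie within 1205 kb. The 5′ ends of Gabra4 and Gabrb1 overlap head to head over 267 bases. Gabra5 lies on chromosome 7 (57055164 to 57240831, minus strand), Gabrb2 on chromosome 11 (42310493 to 42523417, plus strand), Gabra3 on the X chromosome (71476275 to 71700723, minus strand) and Gabrd on chromosome 4 (155469407 to 155482872, minus strand). Reads were counted by strand, per the authors. RefSeq gives windows from 250 bases before to 50 bases after a start site, on GRCm38.p6, for 6 of the 7 members. The window of Gabra5 is printed because this gene was the only member called on both sides of the brain, that of Gabra3 because its log2 fold change was the largest, and those of Gabra4 and Gabrb1 because they form the overlapping pair. Capitals mark the GC box GGGCGG in either orientation, the letters bound by Sp1, which were found in 35.7% of all 32851 windows. Of the windows printed, that of Gabra4 has such letters.
Gabra5 (chr7:57510010-57510309, minus strand): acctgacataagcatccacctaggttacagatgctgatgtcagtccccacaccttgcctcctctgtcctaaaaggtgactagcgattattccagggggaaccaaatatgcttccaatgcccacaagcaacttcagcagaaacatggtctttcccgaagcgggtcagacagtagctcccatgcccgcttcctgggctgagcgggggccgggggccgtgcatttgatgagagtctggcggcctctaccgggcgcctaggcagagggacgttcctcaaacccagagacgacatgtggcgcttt
Gabra3 (chrX:72656870-72657169, minus strand): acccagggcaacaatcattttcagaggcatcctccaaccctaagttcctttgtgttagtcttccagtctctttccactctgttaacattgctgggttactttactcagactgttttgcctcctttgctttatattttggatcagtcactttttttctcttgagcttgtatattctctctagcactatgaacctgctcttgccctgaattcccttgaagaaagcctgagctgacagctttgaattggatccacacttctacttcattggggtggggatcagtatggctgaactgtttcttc
Gabra4 (chr5:71658259-71658558, minus strand): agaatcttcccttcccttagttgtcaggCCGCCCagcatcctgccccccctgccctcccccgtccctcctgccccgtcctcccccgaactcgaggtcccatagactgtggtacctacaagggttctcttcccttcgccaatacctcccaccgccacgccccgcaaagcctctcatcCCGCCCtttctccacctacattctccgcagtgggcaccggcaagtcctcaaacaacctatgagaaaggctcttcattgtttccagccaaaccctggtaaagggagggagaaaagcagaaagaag
Gabrb1 (chr5:71657671-71657970, plus strand): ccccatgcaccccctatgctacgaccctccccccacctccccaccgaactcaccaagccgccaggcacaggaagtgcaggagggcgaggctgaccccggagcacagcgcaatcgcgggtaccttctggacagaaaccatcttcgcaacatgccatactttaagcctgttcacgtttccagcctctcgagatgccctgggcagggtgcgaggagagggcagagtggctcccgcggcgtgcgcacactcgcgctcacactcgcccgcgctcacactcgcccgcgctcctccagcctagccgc

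The GC box was present in 2 copies each in the windows of Gabra4 and Gabra2 and in 1 copy in the Gabrb2 window that starts at 42420190, with none in the other Gabrb2 windows, and no match was found in those of Gabra5, Gabra3 and Gabrb1. The printed Gabrb1 window had 25 CpG dinucleotides, a second one that starts at 71699682 had 9, and the Gabra5 window had 13, against a median of 7 over all windows. Both Gabra3 windows had 0 CpG, as did 5.43% of all windows. The full cyclic AMP response element TGACGTCA was found in 1.79% of all windows and in none of the members' windows, and its first 5 letters TGACG, which form part of it, were found in 20.8% of all windows and in that same Gabrb2 window. These matches describe letters in a window on both strands, and nothing was measured at the promoters.

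In saline mice the alpha 5 transcript was the most abundant of the 7 per length of gene. Levels between genes were compared as CPM per kb of merged exons over the 24 saline libraries. Gabra5 averaged 26.4 ± 2.48 CPM per kb, and its lowest library lay above the highest library of every other member. Gabrb1 came next at 16.7 ± 1.315, then Gabra4 at 15.7 ± 1.39, Gabra2 at 12.03 ± 1.501 and Gabrb2 at 11.7 ± 0.833, and the ranges of neighbours in this order overlapped. Gabrd averaged 6.60 ± 1.38 CPM per kb, with its highest library below the lowest of Gabrb2, and Gabra3 averaged 3.365 ± 1.565, with a range that overlapped that of Gabrd. With the longest transcript in place of merged exons Gabra5 stayed first at 48.9 CPM per kb, and Gabra4 at 30.9 came before Gabrb1 at 20.5.

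The side of injection and the day made no difference that could be called in saline mice. None of the 7 members was called between the saline EZ and the saline PIZ at any of the 3 days, or between day 3 and a later day within a side, in edgeR or in DESeq2. The single member to pass an unadjusted p of 0.05 was Gabra3 at day 3 between the sides, with a log2 fold change of -0.81 ± 0.40 (edgeR, adjusted p = 0.81). The share of all genes called between the saline sides was 0.0281% at day 3 and 0% at day 7 and day 14.

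The level of Gabrd followed that of the granule cell markers across saline libraries. Over these 24 libraries, which share mice in pairs, Pearson's r was 0.953 for Gabrd and 0.781 for Gabra4 on log2 CPM. Gabra3, Gabrb1, Gabra5 and Gabra2 went the other way, with r = -0.757, -0.626, -0.411 and -0.28, and Gabrb2 had 0.40. Over the 12 kainate libraries of the EZ, r of Gabrd with these markers was 0.48. The PIZ libraries of saline mice 18 and 39 had Gabra3 at 44.7 and 59.7 CPM, where the other 22 saline libraries had from 9.92 to 37.03 CPM. Gabrd was at 22.7 and 18.4 CPM in the same libraries, where the other saline libraries had from 33.2 to 52.3 CPM. These correlations describe the libraries and say nothing of single cells.

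**Figure D1:**
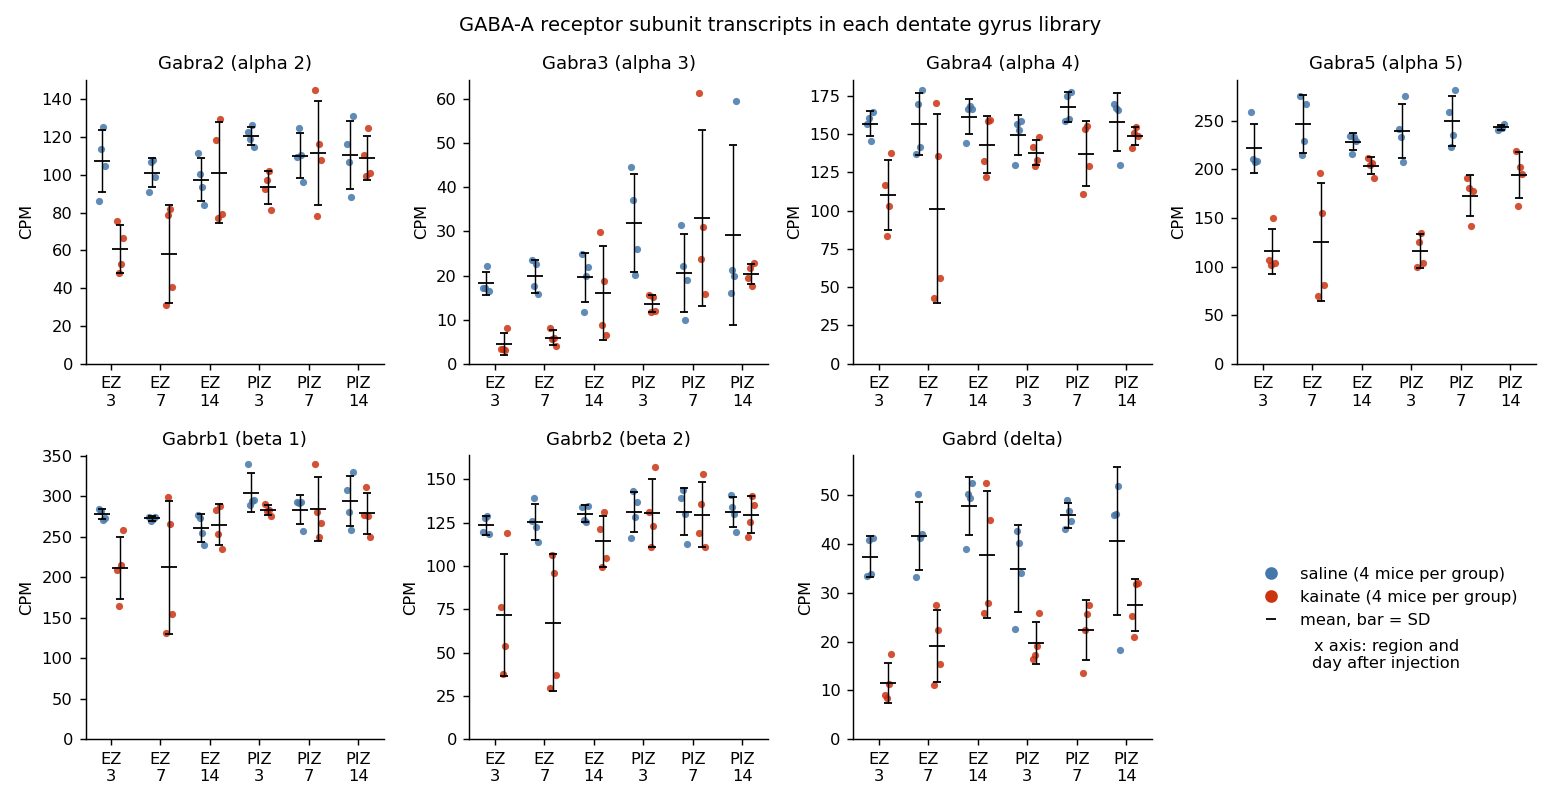
CPM of each of the 7 subunit genes in each library (points), by region and day after injection, for saline (blue) and kainate (red), with the mean and SD of 4 mice. In the EZ at day 3 the kainate points of Gabrd lie between 8.49 and 17.5 CPM, below all saline points, and those of Gabra5 lie below all saline points in every pair of groups.

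In the EZ 3 days after kainate, delta, alpha 3, alpha 5, alpha 2 and beta 2 transcripts were downregulated with TMM scaling, of which alpha 3 alone was called with pan-neuronal scaling. These were 5 of the 7 members, none was called higher, and 8.61% of all genes were called lower in this comparison. The members were chosen with earlier results of these data known, so their counts and medians, here and below, do not test the family. All 5 kept a negative sign when libraries were scaled by pan-neuronal genes, although the values of Gabra2, Gabra5 and Gabrb2 were then within 0.05 of 0 on the log2 scale. The median log2 fold change of the 7 members was -0.82, against 0.03 over all genes tested. All 4 kainate libraries lay below all 4 saline libraries for 6 members, where 18.5% of all genes showed this.

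Gabrd, whose product makes extrasynaptic receptors with alpha 4, had 8.99, 8.49, 11.35 and 17.5 CPM in the kainate EZ of mice 30, 38, 42 and 44. The saline EZ of mice 18, 29, 37 and 41 had 33.5, 40.8, 33.9 and 41.3 CPM. The groups did not overlap, and mouse 44 was the highest of the kainate group. The log2 fold change was -1.69 ± 0.28 (adjusted p = 6.62e-06).

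Gabra3, an alpha subunit of synaptic receptors with a restricted distribution in the hippocampus, showed the largest change. It had 3.25, 3.37, 3.12 and 8.08 CPM in kainate mice 30, 38, 42 and 44, and 17.1, 17.1, 22.1 and 16.5 CPM in saline mice 18, 29, 37 and 41. A total of 3 kainate libraries lay close together, and mouse 44 was again the highest. The log2 fold change was -2.04 ± 0.43 (adjusted p = 0.00018).

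Gabra5 had 107, 102, 150.0 and 104 CPM in the kainate EZ, in the same order of mice, against 259, 211, 207 and 209 CPM in the saline EZ. Here mouse 42, not mouse 44, was the highest of the kainate group, and the kainate mean was 52.2% of the saline mean. The log2 fold change was -0.94 ± 0.18 (adjusted p = 6.12e-05). For Gabra2, a synaptic alpha subunit that is also found at the axon initial segment, the kainate libraries had 47.8 to 75.4 CPM and the saline libraries 86.2 to 125 CPM, with a log2 fold change of -0.82 ± 0.20 (adjusted p = 0.001).

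Among the beta subunits, which form the GABA binding site together with alpha, Gabrb2 was called and Gabrb1 was not. Gabrb2 had 76.5, 37.6, 54.2 and 119 CPM in the kainate EZ against 119, 128, 129 and 118 CPM in the saline EZ. Mouse 44 reached the saline range, and the log2 fold change was -0.78 ± 0.24 (adjusted p = 0.00792). This call was the least stable of the 5: it was lost when any mouse but 44 of the 8 was left out, with log2 fold changes of -0.57 to -0.82 and adjusted p-values of 0.0143 to 0.0633. Gabrb1 had 165 to 259 CPM against 271 to 284 CPM, with a log2 fold change of -0.39 ± 0.15 (adjusted p = 0.026), which missed both thresholds.

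Gabra4, the partner of delta, was not called either. Its kainate libraries had 83.1 to 137 CPM and its saline libraries 146 to 165 CPM, without overlap, and the log2 fold change was -0.51 ± 0.21 (adjusted p = 0.0471). The kainate mean of Gabra4 was 110.1 CPM against 157 CPM in saline, and that of Gabrd was 11.6 CPM against 37.4 CPM. The difference between the 2 genes was not tested.

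At day 7 the same 5 genes were called lower in the EZ, where 11.9% of all genes were called lower, although 4 of them (Gabra2, Gabra5, Gabrb2 and Gabrd) had values above 0 when libraries were scaled by pan-neuronal genes. No member was called higher. The median log2 fold change of the members was -0.90, against 0.01 over all genes. The 4 kainate libraries lay below all saline libraries for 5 members, where 20.1% of all genes showed this.

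For every member but Gabra3 the SD over the 4 kainate mice was larger at day 7 than at day 3. Gabra5 had 69.3 and 80.5 CPM in mice 21 and 35 but 196 and 155 CPM in mice 23 and 26, against 276, 214, 229 and 267 CPM in saline mice 20, 33, 34 and 89. Gabrb2 had 29.7 and 37.1 CPM in mice 21 and 35 and 107 and 95.8 CPM in mice 23 and 26, against 126, 139, 123 and 114 CPM in saline mice. Mice 21 and 35 were the lowest for all members but Gabra3.

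The summed pan-neuronal markers were lowest in the same libraries. These 10 genes summed to 1741 and 1876 CPM in mice 21 and 35, to 4300 and 3807 CPM in mice 23 and 26, and to 5484 to 6950 CPM in the saline EZ of day 7. Microglial markers were at 5178 and 3685 CPM in mice 21 and 35, at 1422 and 2010 CPM in mice 23 and 26, and at 403 to 441 CPM in saline. Thalamus markers were at 133 and 114 CPM in mice 21 and 35, at 41.8 and 61.7 CPM in mice 23 and 26, and at 44.6 to 62.3 CPM in saline, and oligodendrocyte markers were at 9681 and 6306 CPM, at 3855 and 3284 CPM, and at 2459 to 5131 CPM. Over the 12 kainate libraries of the EZ, r with the thalamus markers was -0.94 for Gabra4, -0.91 for Gabrb2 and -0.90 for Gabrb1, and -0.38 for Gabra3. Prkcd was the most abundant gene of this list in saline libraries, at 33.25 CPM. Lef1, also of this list, is reported by the paper as upregulated in the EZ 3 days after kainate. Whether the sum reflects thalamic tissue was not tested.

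At day 3 the pan-neuronal sum was 2502 to 4331 CPM in the kainate EZ and 5400 to 6613 CPM in the saline EZ. Granule cell markers were also lower without overlap, at 756 to 1212 against 1326 to 1648 CPM, and microglial markers were higher, at 1185 to 2121 against 475 to 782 CPM. The part of the glial and thalamus markers in the changes of the subunits was not tested.

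At day 7 in the EZ the log2 fold changes were -1.74 ± 0.42 for Gabra3 (adjusted p = 0.000603), -1.13 ± 0.27 for Gabrd (adjusted p = 0.000537) and -0.98 ± 0.18 for Gabra5 (adjusted p = 2e-05). Gabra3 had 8.11, 5.66, 5.93 and 3.98 CPM in mice 21, 23, 26 and 35 against 15.9 to 23.4 CPM in saline mice. Gabrb2 had -0.90 ± 0.24 (adjusted p = 0.00198) and Gabra2 -0.80 ± 0.20 (adjusted p = 0.000986). Without mouse 35 neither was called, at -0.70 with an adjusted p of 0.0205 for Gabrb2 and at -0.66 with an adjusted p of 0.011 for Gabra2. Gabrb2 was also not called without mouse 21, at -0.65 with an adjusted p of 0.0203. In a fit of these 8 libraries alone, Gabra3 was the only member called.

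The uncalled members at day 7 were Gabra4, at -0.63 ± 0.21 (adjusted p = 0.0121), and Gabrb1, at -0.36 ± 0.15 (adjusted p = 0.0341). Gabra4 had 42.9 and 56.0 CPM in mice 21 and 35 but 170.5 and 136 CPM in mice 23 and 26, so that mouse 23 alone lay within the saline range of 137 to 178.5 CPM. It was called lower by DESeq2, and also in edgeR when mouse 23 or mouse 26 was left out, at -1.0 and -0.80. Between day 3 and day 7 the effect of kainate in the EZ changed for none of the members by a call of edgeR or DESeq2, and none passed an unadjusted p of 0.05, where 0.145% of all genes were called.

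At day 14 none of the 7 members was called in the EZ by edgeR or DESeq2, none passed an unadjusted p of 0.05, and 0.0374% of all genes were called lower. The log2 fold changes ran from -0.34 ± 0.27 for Gabrd to 0.05 ± 0.20 for Gabra2. Gabra5 had 212, 204, 207 and 191 CPM in kainate mice 14, 27, 36 and 40 and 235, 216, 234 and 229 CPM in saline mice 24, 28, 31 and 39, so its groups still did not overlap, with a kainate mean of 89.1% of the saline mean. That was the only such member, where 3.42% of all genes showed it.

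Gabra3 was uneven at day 14. It had 29.9 and 18.7 CPM in kainate mice 14 and 36 but 8.70 and 6.60 CPM in mice 27 and 40, against 11.8 to 24.9 CPM in saline mice. Gabrd had the opposite order, with 25.9 and 27.8 CPM in mice 14 and 36 and 52.5 and 44.9 CPM in mice 27 and 40. Mouse 27 had microglial markers at 2564 CPM and pan-neuronal markers at 3609 CPM, where the other kainate mice of day 14 had 460.5 to 651 CPM and 4760 to 6212 CPM. The part of these levels in the spread was not tested.

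Between day 7 and day 14 the effect in the EZ became less negative by 0.85 ± 0.28 for Gabra2 (adjusted p = 0.0401) and by 0.81 ± 0.25 for Gabra5 (adjusted p = 0.0311), where with pan-neuronal scaling these changes were -0.03 and 0.011. None of the 7 members was called for this change by edgeR or DESeq2, 5 passed an unadjusted p of 0.05, and 0.271% of all genes were called. Without kainate mouse 23 of day 7 both were called, at 1.03 and 1.11, and without kainate mouse 27 of day 14 Gabra2 was called at 0.96.

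**Figure D2:**
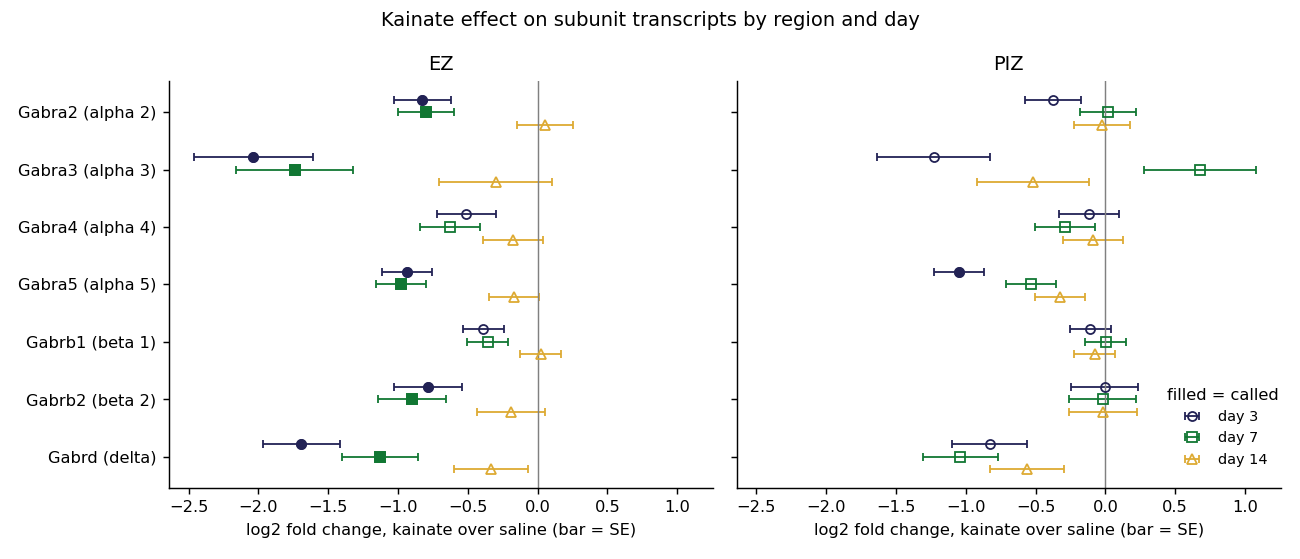
Log2 fold change of kainate over saline with its standard error for the 7 genes, in the EZ (left) and the PIZ (right), at days 3, 7 and 14, with filled symbols for called genes. The 5 called genes of the EZ lie between -2.04 and -0.78 at days 3 and 7 with TMM scaling, where 4 of the day 7 values turn positive with pan-neuronal scaling, and in the PIZ only Gabra5 at day 3 is filled.

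On the contralateral side, alpha 5 was the member that was downregulated at day 3. Gabra5 had 99.0, 126, 135 and 103 CPM in the PIZ of kainate mice 30, 38, 42 and 44. The PIZ of saline mice 18, 29, 37 and 41 had 241, 234, 207 and 275 CPM. The groups were far apart, with a kainate mean of 48.4% of the saline mean, about that of the EZ at the same day.

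The log2 fold change of Gabra5 in the PIZ at day 3 was -1.05 ± 0.18 (adjusted p = 6.32e-05). It was the only one of the 7 members called, where 1.57% of all genes were called lower. The call held when each of the 8 mice was left out in turn, at -0.97 to -1.13. Pan-neuronal markers summed to 5183 to 5692 CPM in these kainate libraries and to 5709 to 7469 CPM in the saline libraries. Scaled by them, Gabra5 was still called at -0.85, and scaled by granule cell markers it was not, at -0.61 with an adjusted p of 0.142. The medians of all genes were 0.20 and 0.47 under these scalings. Granule cell markers summed to 1043 to 1232 CPM in the kainate libraries and to 986 to 1715 CPM in the saline libraries. Markers of glia were higher in the kainate libraries without overlap, with 844 to 1029 against 279 to 389 CPM for microglia and 8640 to 9456 against 4173 to 5618 CPM for astrocytes. Over all 48 libraries r of Gabra5 was -0.81 with microglial and -0.82 with astrocyte markers, and their part in its level was not tested.

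Alpha 3 and delta had negative values in the PIZ at day 3 that did not pass the threshold. Gabra3 had 15.5, 11.8, 15.2 and 12.03 CPM in kainate mice and 44.7, 37.03, 20.1 and 25.9 CPM in saline mice, without overlap, and its log2 fold change was -1.23 ± 0.40 (adjusted p = 0.024). Gabrd had 16.4, 17.3, 19.0 and 25.9 CPM against 22.7, 42.7, 40.2 and 33.99 CPM, with -0.83 ± 0.27 (adjusted p = 0.0222). The lowest saline value of Gabrd and the highest of Gabra3 came from mouse 18, which stood apart, and without mice 18, 21 and 39 Gabrd was called at -0.99 (adjusted p = 0.00185).

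The remaining members were not called in this comparison. Gabra2 had a log2 fold change of -0.37 ± 0.20 (adjusted p = 0.181), with 81.5 to 102 CPM in kainate and 115 to 126 CPM in saline libraries, without overlap. Gabra4, Gabrb1 and Gabrb2 had values from -0.115 to -0.005 with standard errors of 0.15 to 0.24. With Gabra2, Gabra3 and Gabra5, 3 members had all kainate libraries below all saline libraries, where 13.6% of all genes showed this.

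At day 7 none of the 7 members was called in the PIZ by edgeR or DESeq2, 2 passed an unadjusted p of 0.05, and 0.0514% of all genes were called lower. Gabrd had 13.6, 22.4, 25.7 and 27.5 CPM in kainate mice 21, 23, 26 and 35 and 42.9, 48.9, 46.7 and 44.6 CPM in saline mice 20, 33, 34 and 89. The groups were separate, the kainate mean was 48.7% of the saline mean, and the log2 fold change was -1.04 ± 0.27 (adjusted p = 0.0374). Granule cell markers were at 706 to 1298 CPM in these kainate libraries and at 1478 to 1741 CPM in the saline libraries. Scaled by these genes Gabrd was at -0.31 (adjusted p = 0.251), where the median of all genes was 0.83 and Gabrd lay at -1.14 relative to it.

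Gabra5 had 191, 181, 142 and 178 CPM in the kainate PIZ at day 7 and 259, 223, 236 and 281 CPM in the saline PIZ, again without overlap. Its log2 fold change was -0.53 ± 0.18 (adjusted p = 0.131). Gabra3 had 15.7 to 61.4 CPM against 9.92 to 31.5 CPM, with 0.68 ± 0.40 (adjusted p = 0.441), and its highest value was that of mouse 21, which stood apart. Gabra4, Gabra5 and Gabrd were the 3 members whose groups did not overlap, where 5.26% of all genes showed this.

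At day 14 none was called in the PIZ by edgeR or DESeq2, 1 passed an unadjusted p of 0.05, and 0.00468% of all genes were called lower. That member was Gabrd, with a log2 fold change of -0.56 ± 0.27 (adjusted p = 0.805), and saline mouse 39 had the lowest value of both groups at 18.4 CPM. Gabra5 had 218, 162, 202 and 195 CPM in kainate mice 14, 27, 36 and 40 and 241, 242, 243 and 246 CPM in saline mice. It was the only member whose groups did not overlap, where 3.47% of all genes showed this, and its log2 fold change was -0.32 ± 0.18 (adjusted p = 0.89).

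With TMM scaling Gabra5 was below saline in every kainate library in all 6 pairs of groups, as were 0.238% of all genes, but its log2 fold change was above 0 with pan-neuronal scaling in the EZ at day 7 (0.16) and day 14 (0.17), and with granule cell scaling in the EZ at day 14 (0.55) and the PIZ at day 7 (0.31). The medians of all genes in these 4 cases were 1.34, 0.33, 0.71 and 0.83, and relative to them Gabra5 was at -1.18, -0.16, -0.16 and -0.52. The pairs have different mice at each day but the same mice on both sides. Its kainate means were 52.2%, 50.8% and 89.1% of the saline means in the EZ at days 3, 7 and 14. In the PIZ they were 48.4%, 69.2% and 80%. The kainate effect on Gabra5 differed between EZ and PIZ by 0.11 ± 0.25 at day 3 (adjusted p = 0.845), -0.45 ± 0.25 at day 7 (adjusted p = 0.181) and 0.155 ± 0.25 at day 14 (adjusted p = 0.907). Its effect in the PIZ changed between days 3 and 7 by 0.52 ± 0.25 (adjusted p = 0.462). For that change none of the members was called by edgeR or DESeq2, 2 passed an unadjusted p of 0.05, and 0.0234% of all genes were called.

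The kainate effect differed between the sides for 1 member, alpha 3, at day 7. The difference of the 2 log2 fold changes of Gabra3, EZ minus PIZ, was -2.42 ± 0.58 (adjusted p = 0.00389), where 2.88% of all genes were called lower. The value lay between -2.61 and -2.12 with each mouse left out in turn, and the adjusted p was above 0.01 for 5 of the 8 mice: without kainate mouse 21 (-2.12, adjusted p = 0.0313), without kainate mouse 35 (-2.49, adjusted p = 0.0115) and without saline mice 20, 34 or 89 (-2.61, -2.12 and -2.48, with adjusted p-values of 0.0106 to 0.0167). The value was also -2.12 without mice 18, 21 and 39 (adjusted p = 0.039). With mouse as a replicate block, which pairs the 2 sides of each brain, 2 members were called, Gabra3 at -2.38 and Gabrb2 at -1.08 (adjusted p = 0.00554). Without kainate mouse 23, Gabra2, Gabra3 and Gabrb2 were called, and without mouse 26, Gabra2 and Gabra3. Gabra3 was not called with pan-neuronal scaling, at -0.98 (adjusted p = 0.0808), or with granule cell scaling, at -2.36 (adjusted p = 0.0598), and with pan-neuronal scaling Gabra2 and Gabrb2 were above 0, at 0.34 and 0.19.

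At day 3 and day 14 no member was called for a difference between the sides by edgeR or DESeq2. At day 3, 2 members passed an unadjusted p of 0.05, Gabrd at -0.86 ± 0.38 (adjusted p = 0.228) and Gabrb2 at -0.78 ± 0.34 (adjusted p = 0.229), and 0.0655% of all genes were called either way. At day 14 none passed, and 0% of all genes were called.

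A direct comparison of the 2 sides of the kainate mice gave lower levels in the EZ for alpha 3 and beta 2 at day 3. Gabra3 was at -1.62 ± 0.43 (adjusted p = 0.00588) and Gabrb2 at -0.86 ± 0.24 (adjusted p = 0.00954), where 3.09% of all genes were called lower. With pan-neuronal scaling neither was called, at -0.86 (adjusted p = 0.0358) and -0.15 (adjusted p = 0.494), and Gabra5 was called higher at 0.85, where 12264 of 21390 genes were. With granule cell scaling no member was called. Both calls were lost without mouse 30, 38 or 42, at -1.43, -1.565 and -1.42 for Gabra3 with adjusted p-values of 0.0426 to 0.0568 and at -0.89, -0.72 and -0.78 for Gabrb2 with adjusted p-values of 0.0302 to 0.093. Gabra5 stood at 0.00 ± 0.18 between the sides.

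At day 7 Gabra2, Gabra3 and Gabrb2 were lower in the EZ than in the PIZ of the kainate mice, where 9.92% of all genes were called lower, although with pan-neuronal scaling Gabra2 and Gabrb2 had values of 0.23 and 0.14. Their log2 fold changes were -0.94 ± 0.20 (adjusted p = 0.000211), -2.47 ± 0.43 (adjusted p = 1.28e-05) and -0.95 ± 0.24 (adjusted p = 0.00146). With the replicate block 5 members were called, with Gabra4 at -0.65 and Gabra5 at -0.59 in addition. Without kainate mouse 21, in whose PIZ library Gabra3 was at 61.4 CPM, Gabra3 alone was called, with Gabra2 at -0.58 (adjusted p = 0.0211) and Gabrb2 at -0.74 (adjusted p = 0.0198). Without mouse 35 Gabrb2 was not called, at -0.81 (adjusted p = 0.0151). Without mouse 23, 6 members were called, and without mouse 26, 5. At day 14 no member was called by edgeR or DESeq2, none passed an unadjusted p of 0.05, and 0.00468% of all genes were called lower.

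The subunits were also set against neuronal transcripts by changing the scaling of the libraries. With libraries scaled by 10 pan-neuronal genes instead of TMM, the median of all genes moved to 0.91 in the EZ at day 3, 1.34 in the EZ at day 7 and 0.20 in the PIZ at day 3. At day 3, scaling by library totals alone moved it to 0.16 (EZ) and 0.11 (PIZ). With pan-neuronal scaling 12958 of the 21390 genes were called higher in the EZ at day 3 and 16464 at day 7. On the scale of the neuronal genes themselves, Gabra3 was called at -1.25 in the EZ at day 3 and no other member was, with Gabrd at -0.88 (adjusted p = 0.0208) and Gabra4 and Gabrb1 above 0 at 0.31 and 0.45.

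In the EZ at day 7, the pan-neuronal scaling gave 1 call and it was higher, Gabrb1 at 0.81, which lies below the median of all genes under this scaling. Gabra3 was at -0.41 (adjusted p = 0.296) and Gabrd at 0.04 (adjusted p = 0.915). With libraries scaled by 10 granule cell genes, the median of all genes moved to 0.79 in the EZ at day 3 and to 1.021 at day 7, Gabrd was the only member called at day 3, at -0.97, and none was called at day 7. Gabra3 was then at -1.32 at day 3 (adjusted p = 0.0484). The genes used for scaling may themselves change with kainate, so these values compare the subunits with those genes.

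**Figure D3:**
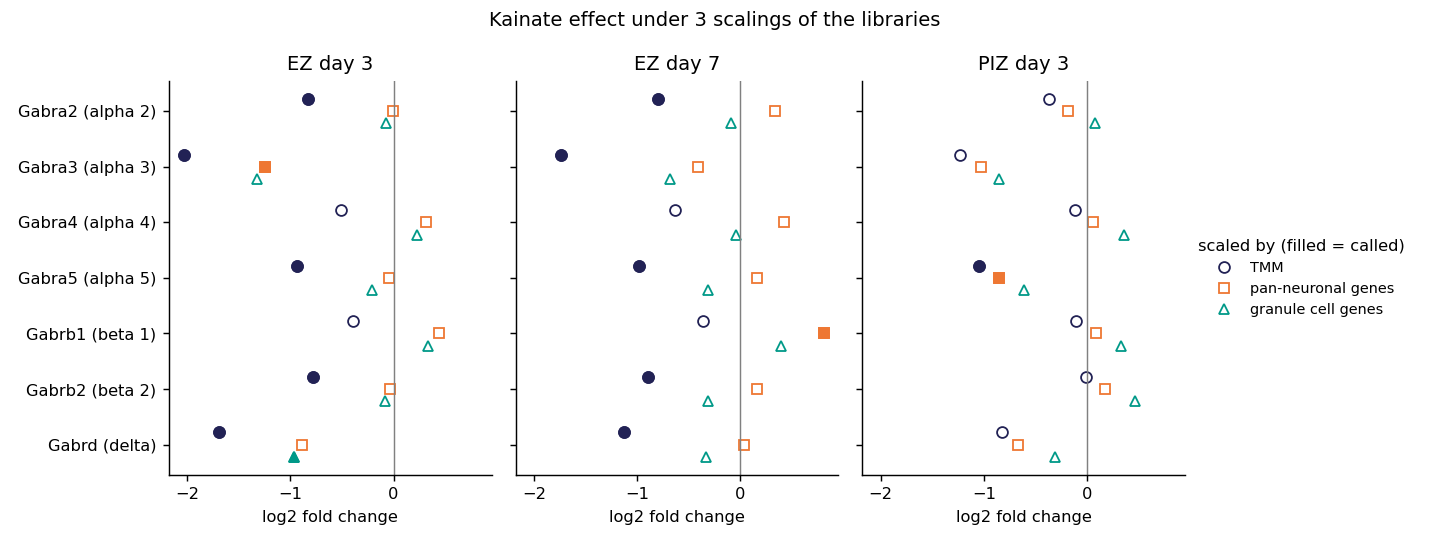
Log2 fold changes of the 7 genes under TMM scaling (circles), scaling by 10 pan-neuronal genes (squares) and scaling by 10 granule cell genes (triangles), with filled symbols for called genes. With TMM all values in the EZ at days 3 and 7 lie below 0, and with pan-neuronal scaling at day 7 all but Gabra3 lie above 0, up to 0.81 for Gabrb1.

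The mix of alpha subunits differed between kainate and saline libraries in the PIZ at day 3. Shares were computed per library from CPM per kb over Gabra2, Gabra3, Gabra4 and Gabra5, and are descriptions without a test. The share of Gabra5 was 32.9% ± 3.275 in the kainate PIZ at day 3 against 44.5% ± 2.97 in the saline PIZ, without overlap. The share of Gabra4 was 35.35% ± 3.86 in the same kainate libraries against 25.01% ± 2.51 in saline, also without overlap. A share depends on the levels of the other 3 genes, and the level of Gabra4 itself was not higher, at 129 to 148 CPM in kainate and 130 to 159 CPM in saline mice, a log2 fold change of -0.115 (adjusted p = 0.74).

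In the EZ at day 3 the share of Gabra3 was 2.05% ± 0.978 in kainate against 4.82% ± 0.699 in saline mice, and that of Gabra4 was 34.9% ± 4.23 against 28.5% ± 1.775. Both pairs of groups were separate, but with the length of the longest transcript those of Gabra4 overlapped, with a lowest kainate share of 33.63% and a highest saline share of 33.69%. The share of Gabra5 in the EZ overlapped, at 41.35% ± 7.28 and 44.8% ± 4.15. By day 14 the shares of kainate and saline mice overlapped for all 4 genes in the EZ.

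**Figure D4:**
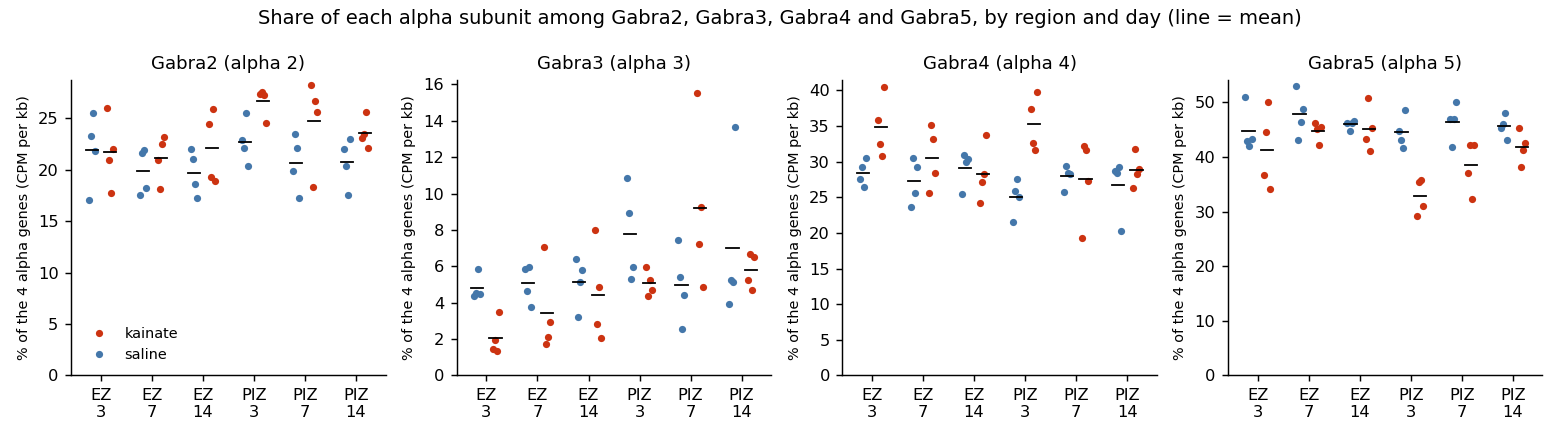
Share of each alpha subunit gene in the sum of 4 alpha genes (percent of CPM per kb), in each library, by region and day, for saline (blue) and kainate (red), with a line at the mean. In the PIZ at day 3 the kainate points of Gabra5 lie between 29.2% and 35.8%, below all saline points, and those of Gabra4 lie above all saline points.

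Among the members Gabrd had the lowest r with pan-neuronal genes, and Gabra3 the lowest with granule cell genes. Over all 48 libraries, Pearson's r with the mean of the pan-neuronal genes was 0.695 to 0.873 for the other 5 members, 0.78 for Gabra3 and 0.46 for Gabrd. With the granule cell genes r was 0.80 for Gabrd, 0.84 for Gabra4 and 0.20 for Gabra3. With interneuron markers Gabra3 had the highest r of the members, 0.87, followed by Gabrb2 at 0.82. The libraries share mice in pairs and differ by treatment, so these values are descriptions.

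The summed interneuron markers were 219 to 404.5 CPM in the kainate EZ at day 3 and 382 to 548 CPM in the saline EZ, so the ranges overlapped. The mean log2 CPM of the same genes, which was used for r, did not overlap, at 2.00 to 3.79 and 4.66 to 5.26. Of the 7 interneuron genes 5 were called lower there, as were 8.61% of all genes. Summed CA1 pyramidal cell markers, 4 genes, were 56.85 to 166.5 CPM in the kainate and 242 to 464 CPM in the saline EZ of day 3, and r of Gabra3 with CA1 markers over 48 libraries was 0.82. The part of these cells in the level of Gabra3 was not tested.

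**Figure D5:**
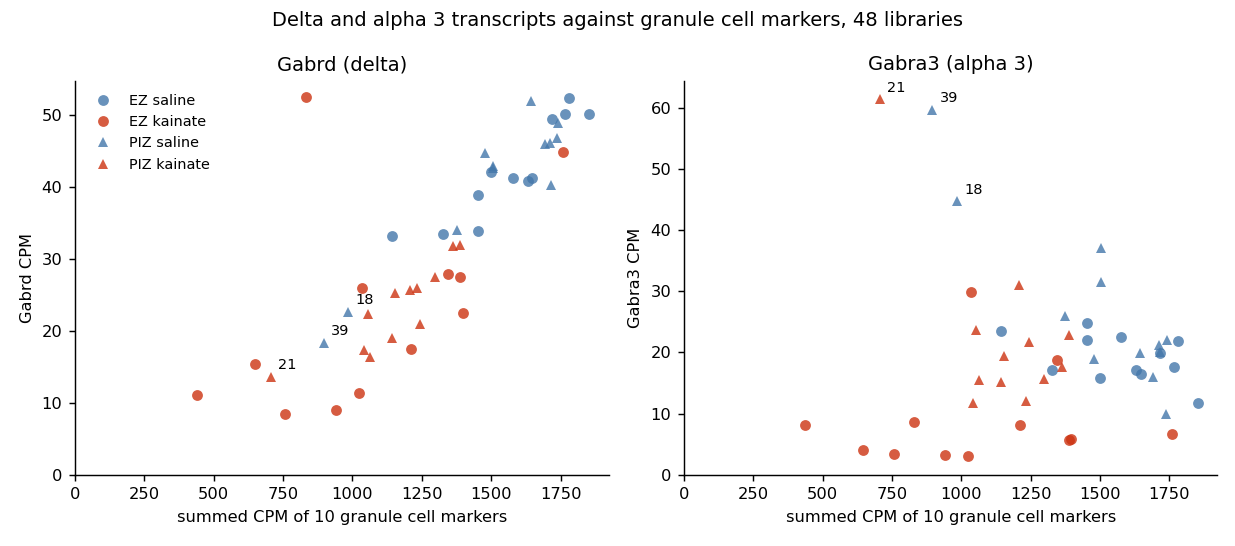
CPM of Gabrd (left) and Gabra3 (right) against the summed CPM of 10 granule cell markers in 48 libraries, for EZ (circles) and PIZ (triangles), saline (blue) and kainate (red), with the 3 PIZ libraries that stood apart labelled by mouse on both sides. Gabrd rises with the markers among saline points, EZ kainate mouse 27 of day 14 at 52.5 CPM lies far above the points of similar markers, and the labelled libraries have the highest Gabra3, 44.7 to 61.4 CPM.

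The genes whose level was most alike to that of each member were found over the 48 libraries among 12873 genes. Gabra2 was most alike to Etnk1 (r = 0.945) and Ttbk2 (0.94), Gabra3 to Frmpd3 (0.93) and Ccdc148 (0.93), and Gabra4 to Synpr (0.96) and Kcnh1 (0.94). Gabra5 was most alike to Nell2 (0.94) and Prdm8 (0.93), and Gabrd to Kcnd2 (0.89) and Tspan7 (0.88). Among the genes most alike to the beta subunits were Akap6 (0.92) with Gabrb1, and Adam22 (0.95) and Ephx4 (0.95) with Gabrb2. Among the members themselves the highest r was that of Gabra4 with Gabrb2, 0.89, and the overlapping pair Gabra4 and Gabrb1 had 0.77.

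Over the 24 saline libraries alone correlations between members had both signs. Gabra4 and Gabrd had r = 0.82, Gabra2 and Gabrb1 had 0.73, and Gabrb1 and Gabrd had -0.70. Gabra4 and Gabrb1, whose 5′ ends overlap, had -0.53 in saline libraries and 0.95 over the 12 kainate EZ libraries.

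Of the 12 other subunit genes of the family, 7 passed the filter, and 2 of these were called lower and none higher in each of the EZ at day 3, the EZ at day 7 and the PIZ at day 3, where 8.61%, 11.9% and 1.57% of all genes were called lower. With pan-neuronal scaling none of the 7 was called lower in these comparisons, and 1 was called higher in the EZ at day 3 and 3 at day 7, where 12958 and 16464 of 21390 genes were. Gabrg1, a gamma subunit gene next to Gabra2, was at -0.95 ± 0.20 in the EZ at day 3 (adjusted p = 0.000205) and -0.74 ± 0.20 in the PIZ at day 3 (adjusted p = 0.00673). Gabrg3, the neighbour of Gabra5, was at -0.74 ± 0.19 in the EZ at day 7 (adjusted p = 0.00104) and -0.67 ± 0.19 in the PIZ at day 3 (adjusted p = 0.00812). Gabrq and Gabrr2, with saline means of 0.118 and 0.368 CPM, were called in none of the 6 comparisons of kainate with saline. Gabra6, Gabre, Gabrp, Gabrr1 and Gabrr3 did not pass the filter.

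Transcripts of proteins that anchor or traffic the receptor were called in both directions. Of 16 genes of receptor clustering and trafficking, 1 was called higher and 5 lower in the EZ at day 3, and 2 higher and 5 lower at day 7, where 16.1% and 20.6% of all genes were called higher and 8.61% and 11.9% lower with TMM. With pan-neuronal scaling 7 and 11 of the 16 were called higher and 1 and 0 lower, where 12958 and 16464 of 21390 genes were called higher. Igsf9b, an adhesion protein of inhibitory synapses, rose by 2.05 ± 0.31 on the log2 scale at day 3 (adjusted p = 1.98e-06), and Gabarap, which binds gamma subunits, rose by 0.73 ± 0.115 at day 7 (adjusted p = 1.64e-06), both called higher under both scalings too. Shisa7, an auxiliary subunit of the receptor, fell by 1.71 ± 0.30 at day 3 (adjusted p = 1.7e-05) and was lower under both scalings. Gabarapl1 was at -0.79 ± 0.13 at day 7 (adjusted p = 2.74e-06) and 0.41 with pan-neuronal scaling. Gphn, which encodes the scaffold gephyrin, was at -0.51 ± 0.09 at day 7 (adjusted p = 2.1e-05), and Rdx, which anchors alpha 5, was at 0.50 ± 0.09 at day 3 (adjusted p = 4.56e-05), both under the fold change required.

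Of 5 genes of chloride transport, 2 were called lower at day 3 in the EZ, and 1 lower and 1 higher at day 7, where 8.61% and 11.9% of all genes were called lower and 20.6% were called higher at day 7. With pan-neuronal scaling none was called lower, and 3 and 4 were called higher, as were 12958 and 16464 of 21390 genes. Slc12a5, the chloride exporter KCC2 on which the inhibitory action of the receptor depends, was at -0.69 ± 0.185 at day 3 (adjusted p = 0.00217) and -1.06 ± 0.19 at day 7 (adjusted p = 9.63e-06), and at 0.13 and 0.06 with pan-neuronal scaling. Stk39, a kinase of chloride cotransporters, was at -0.59 ± 0.09 at day 3 (adjusted p = 2.06e-06) and 0.295 with pan-neuronal scaling. With libraries scaled by their totals alone, none of the 5 was called at day 3. Of 5 genes of the GABA-B receptor, 2 were called lower at day 3 and 4 at day 7, against the same 8.61% and 11.9% of all genes, and none was with pan-neuronal scaling, where 1 was called higher on each day. Of these genes 1 was called lower at day 3 with libraries scaled by their totals alone, and 3 with RLE size factors. Among them Kctd8, an auxiliary subunit, was at -1.70 ± 0.34 at day 3 (adjusted p = 8.88e-05) and Gabbr1 at -0.66 ± 0.15 at day 7 (adjusted p = 0.000263). In the PIZ and at day 14 none of these 3 lists had a called gene in edgeR, and from 0 to 6 genes of a list passed an unadjusted p of 0.05.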

How the data were processed

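Polyadenylated RNA of 48 dentate gyrus libraries was sequenced by the authors. The deposited table holds raw counts per gene for 55357 genes, which the authors made with fastp 0.20.1, HISAT2 2.2.1 on GRCm39 and featureCounts of Subread 1.6.4, counted by strand, per the submitters' processing notes and the study's methods. Gene identifiers were matched to symbols with Gencode M39 (98.90% matched). Depth was 17762656 to 25712975 counts per library.

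Genes were kept by edgeR's filterByExpr over the 12 groups (21390 genes, 99.92% of counts). All 48 libraries were fitted together with edgeR 4.0.16 in R 4.3.3 (TMM scaling, quasi-likelihood test), and 23 comparisons were adjusted by Benjamini-Hochberg over all genes tested. Calls required an adjusted p below 0.01 together with a change of over 1.5-fold. Standard errors were computed as the absolute log2 fold change over the square root of F. The fit was run on simulated counts in which few genes were changed, in the kainate EZ of day 3. These counts lacked the broad changes and the paired libraries of the data, so they do not test the calls here.

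The members and gene lists were chosen with earlier results of these data known. All 7 members are named. Of the other lists, up to 3 genes of the smallest p at day 3 and up to 3 at day 7 (EZ), genes called against their list and subunit genes that passed the filter could be named, as could the 2 genes with the highest correlation with each member, and some of these are not reported here. Alternatives were DESeq2 1.42.0, other scalings, no filter, fits of the compared groups alone, mouse as a replicate block and leaving out each mouse. An alternative without mice 18, 21 and 39 was added after seeing the data. Both libraries of a mouse come from the same animal, and the correlation of their residuals was -0.054 to 0.376 over the 24 mice, so the mouse pairs the sides. Each mouse is 1 replicate.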

Additional observations from a re-analysis of the deposited data

Results flagged for a closer look

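In 9 of the 84 groups of 4 libraries, 1 library lay far from the other 3 by Dixon's test, which by chance marks about 1 in 20 groups. For Gabra3 these were kainate mouse 44 in the EZ at day 3 with 8.08 CPM, saline mouse 37 in the EZ at day 3 with 22.1 CPM and saline mouse 39 in the PIZ at day 14 with 59.7 CPM. For Gabra4 they were saline mouse 24 in the EZ at day 14 with 144 CPM and saline mouse 39 in the PIZ at day 14 with 129.5 CPM. Gabra5 stood out in kainate mouse 42 of the EZ at day 3 with 150.0 CPM and in saline mouse 18 of the EZ at day 3 with 259 CPM. Gabrb1 stood out in the PIZ of saline mouse 18 at day 3 with 339.8 CPM and of saline mouse 89 at day 7 with 257 CPM. The PIZ libraries of mice 18 and 39 are among the 3 with the highest summed mossy cell markers, a sum that in both rests mostly on Calb2.

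The kainate effect on Gabra3 at day 7 differed between EZ and PIZ by -2.42 on the log2 scale, by the test of the difference itself (edgeR, adjusted p = 0.00389). As given above, this call was lost when certain single mice were left out, and with pan-neuronal or granule cell scaling.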

How the results depend on the processing

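The 5 members called in the EZ at day 3 became 1 with pan-neuronal and 1 with granule cell scaling, and 4 with library size only, without the filter and with only the compared groups. The 5 called in the EZ at day 7 became 1 (higher) with pan-neuronal scaling, 0 with granule cell scaling and 1 when only the compared groups were fitted. In the PIZ at day 3 the single call became 0 with granule cell scaling, and 2 with only the compared groups or without mice 18, 21 and 39. For the day 7 difference between the sides the single call became 0 with granule cell scaling and 0 without those mice, and 2 with mouse as a replicate block. Between the sides of kainate mice at day 3 the 2 calls became 1 with library size only, 1 (higher) with pan-neuronal scaling, 0 with granule cell scaling, 1 without the filter and 0 with only the compared groups. With pan-neuronal scaling the day 7 difference had 1 call, Gabrb1, which was higher. Against saline at day 7 this scaling called 16464 of 21390 genes higher in the EZ and 3 in the PIZ. Between the sides of kainate mice at day 7 the 3 calls became 4 with pan-neuronal scaling (Gabra4, Gabra5 and Gabrb1 higher and Gabra3 lower at -1.04), 1 with only the compared groups, 5 with the replicate block and 1 without mice 18, 21 and 39. The higher calls came under a scaling that called most genes higher in the EZ against saline at day 7. The block changed the count of calls in no other comparison of the sides. The cause of these changes was not tested.

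Leaving out 1 mouse gave 4 to 5 calls in the EZ at day 3, 3 to 6 at day 7 and 1 in the PIZ at day 3. It gave 0 to 3 for the day 7 difference between the sides, 0 to 2 for the change from day 7 to day 14 in the EZ, and 0 to 2 and 1 to 6 between the sides of kainate mice at days 3 and 7. In all other comparisons it gave 0.

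Signs are listed here only for members and comparisons called under at least 1 setting, and other values turned too. With pan-neuronal scaling the sign turned in the EZ at day 7 for Gabra2 (0.34), Gabra4 (0.43), Gabra5 (0.16), Gabrb1 (0.81), Gabrb2 (0.16) and Gabrd (0.041), and with granule cell scaling for Gabrb1 (0.395). With pan-neuronal scaling it also turned for the day 7 difference between the sides in Gabra2 (0.34), Gabrb1 (0.83) and Gabrb2 (0.19). This scaling moved the median of all genes at day 7 against saline to 1.34 in the EZ and 0.003 in the PIZ. The sign turned as well, with pan-neuronal scaling, for the change from day 7 to day 14 in the EZ in Gabra2 (-0.03), and between the sides of kainate mice at day 7 in Gabra2 (0.23), Gabra4 (0.64), Gabra5 (0.69), Gabrb1 (0.79) and Gabrb2 (0.14).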
